A study of Homo sapiens with 12 samples.

Results

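The genes described here are 9 targets of the transcription factor NRF2 that make or recycle glutathione and thioredoxin, supply NADPH, store iron or reduce quinones: NQO1, GCLC, GCLM, GSR, TXNRD1, SRXN1, TKT, ME1 and FTL. They were chosen by name and were looked up by Ensembl gene ID in a table of raw read counts for 16599 genes. Of the 9 genes, 8 have a row in that table, and all 8 passed the filter on low counts and were tested. The level of SRXN1, the sulfiredoxin gene, was not analysed here. The study asked how over-expression of SRSF2, a splicing factor of the serine/arginine-rich family, changes the RNA of lung cancer cells. Its 4 groups of 3 libraries each are A549 cells over-expressing SRSF2, untreated A549 cells, H1650 cells over-expressing SRSF2, and untreated H1650 cells. A549 and H1650 are established human lines from lung adenocarcinomas, and A549 carries a mutation in KEAP1. The control cells are labelled untreated, but their titles bear the letters NC, which the labels do not explain, so an empty construct may or may not have been used. The vector and the promoter that drove SRSF2 and the time of harvest are not given in the sources used here. SRSF2 was not analysed here as a gene, and over-expression is taken from the labels alone. Nothing in the labels says that replicates were grown as separate cultures, so the p-values measure the spread between these libraries, which may be technical.

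NRF2, the product of NFE2L2, is held at a low level by KEAP1, an adaptor that presents it to a CUL3 ubiquitin ligase. Oxidants and electrophiles modify KEAP1, NRF2 accumulates, pairs with a small MAF protein and binds antioxidant response elements in front of its targets, where BACH1 acts as a competing repressor. Mutations that disable KEAP1 recur in lung adenocarcinoma and leave the pathway active without a stimulus.

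The antioxidant response element has the core TGACNNNGC, and 1 instance of it, TGACTCAGC, is called the full form here. These letters were searched on both strands in windows of 300 bases, 250 before and 50 after the RefSeq start, of GRCh38.p14. Windows were found for 8 of the 9 genes, SRXN1 among them, 9 windows in all, because TXNRD1 has more than 1. GSR had no window and was not searched. The core stood in 4 of these 9 windows, those of GCLM, TXNRD1 and ME1, which is 44.4% of them against 13.3% of all 35116 windows of the table. Of these 4 windows, 2 are of TXNRD1. By gene the core stood in 3 of 8, against 4384 of 27305 genes. Among other established NRF2 targets it stood in 9 of 39 windows, or 23.1%. Elements outside the windows were not searched, so a gene without a match here may have one farther away. The full form stood in the ME1 window alone of the 9, against 0.561% of all windows. By its letters the full form always holds an AP-1 site, TGANTCA, which was found in 7.71% of all windows. A match of letters is a description and not a binding site. The stretches below are shown because they hold the core close to the start of a gene whose level is described in what follows. Capitals mark the core, as read on the strand of the gene, so that a match on the opposite strand begins with GC. The core begins 34 bases before the RefSeq start in GCLM (chr1:93909456-93909655, minus strand), 99 and 8 bases before it in TXNRD1 (chr12:104215580-104215779, plus strand) and 137 bases before it in ME1 (chr6:83431072-83431271, minus strand). ME1 has another match just after its start, which is not shown.
GCLM: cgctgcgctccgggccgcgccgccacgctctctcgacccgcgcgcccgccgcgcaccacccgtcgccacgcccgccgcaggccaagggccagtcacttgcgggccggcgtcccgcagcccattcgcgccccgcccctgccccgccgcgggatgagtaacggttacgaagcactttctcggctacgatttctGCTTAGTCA
TXNRD1: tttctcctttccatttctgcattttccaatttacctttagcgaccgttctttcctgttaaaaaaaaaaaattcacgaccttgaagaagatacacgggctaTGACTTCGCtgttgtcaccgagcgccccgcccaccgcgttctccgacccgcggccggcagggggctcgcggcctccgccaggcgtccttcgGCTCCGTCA
ME1: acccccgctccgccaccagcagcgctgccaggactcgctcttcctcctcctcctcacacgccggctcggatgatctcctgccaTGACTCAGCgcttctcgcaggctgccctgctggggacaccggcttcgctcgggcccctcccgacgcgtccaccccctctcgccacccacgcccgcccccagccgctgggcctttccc

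Libraries held 23876899 to 32079027 counts. The first component of a principal component analysis, with 90.7% of the variance, separated the lines, and the second, with 5.90%, separated SRSF2 from untreated libraries in both. H1650 SRSF2 replicate 3 stood nearer to the untreated libraries on the second component, at -28.09 against -36.68 and -34.40 for replicates 1 and 2. Epithelial markers, 7 of 8 in the table, summed to between 9278 and 11344 CPM in the 12 libraries, mostly from KRT7, KRT8 and KRT18. EPCAM, CDH1 and CLDN4 were far lower in A549, with untreated means of 5.72, 38.2 and 4.36 CPM in A549 against 307, 1309 and 596 CPM in H1650. Of the other cell types, 1 to 2 of the fibroblast, leukocyte and endothelial markers are in the table for each list, and their sums stayed below 23 CPM. Of 8 markers of lung epithelium the 2 in the table, SFTPB and FOXA2, summed to 33.6 to 41.1 CPM in A549 and to at most 0.457 CPM in H1650. Nearly all of the A549 sum was FOXA2, with means of 35.8 CPM with SRSF2 and 39.5 CPM untreated. SFTPB averaged at most 0.300 CPM in any group. It was not called between the lines (edgeR adjusted p = 0.602 with SRSF2 and 0.49 untreated). No gene of the table lacks counts in more than 2 of the 6 A549 libraries, whereas 136 have none in H1650. Genes seen mainly in H1650 may therefore be too few among those tested, which bears on every background share of A549 against H1650. Counts were scaled to CPM, a library's counts for a gene relative to its total, with TMM factors and tested with edgeR's quasi-likelihood test over 15991 genes. A gene is called at a Benjamini-Hochberg adjusted p under 0.05. Levels are shares of a library, so that less of an RNA per cell cannot be told apart from more of all other RNA, or from fewer cells with it.

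All 8 genes were higher in A549 than in H1650, by 3.69-fold for NQO1 up to 27.9-fold for FTL between cells over-expressing SRSF2. Between untreated cells the same comparison ran from 2.996-fold for NQO1 to 41.2-fold for FTL. In both comparisons the libraries of the lines did not overlap for any of the 8 genes. All 8 were called higher and none lower in both comparisons. Of all genes tested, 84.2% were called between the SRSF2 groups (43.7% higher and 40.5% lower in A549) and 82.4% between the untreated groups (42.3% higher and 40.1% lower in A549). Libraries that do not overlap, with A549 higher, were found for 43.5% of all genes between the SRSF2 groups and 43.1% between the untreated groups. The median log2 fold change of the 8 was 2.96 between the SRSF2 groups, against 0.06 over all genes tested, and 2.72 between the untreated groups, against 0.04 over all genes tested. A difference between the lines covers everything in which they differ, so the KEAP1 mutation and other differences between the lines cannot be told apart.

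**Figure D1:**
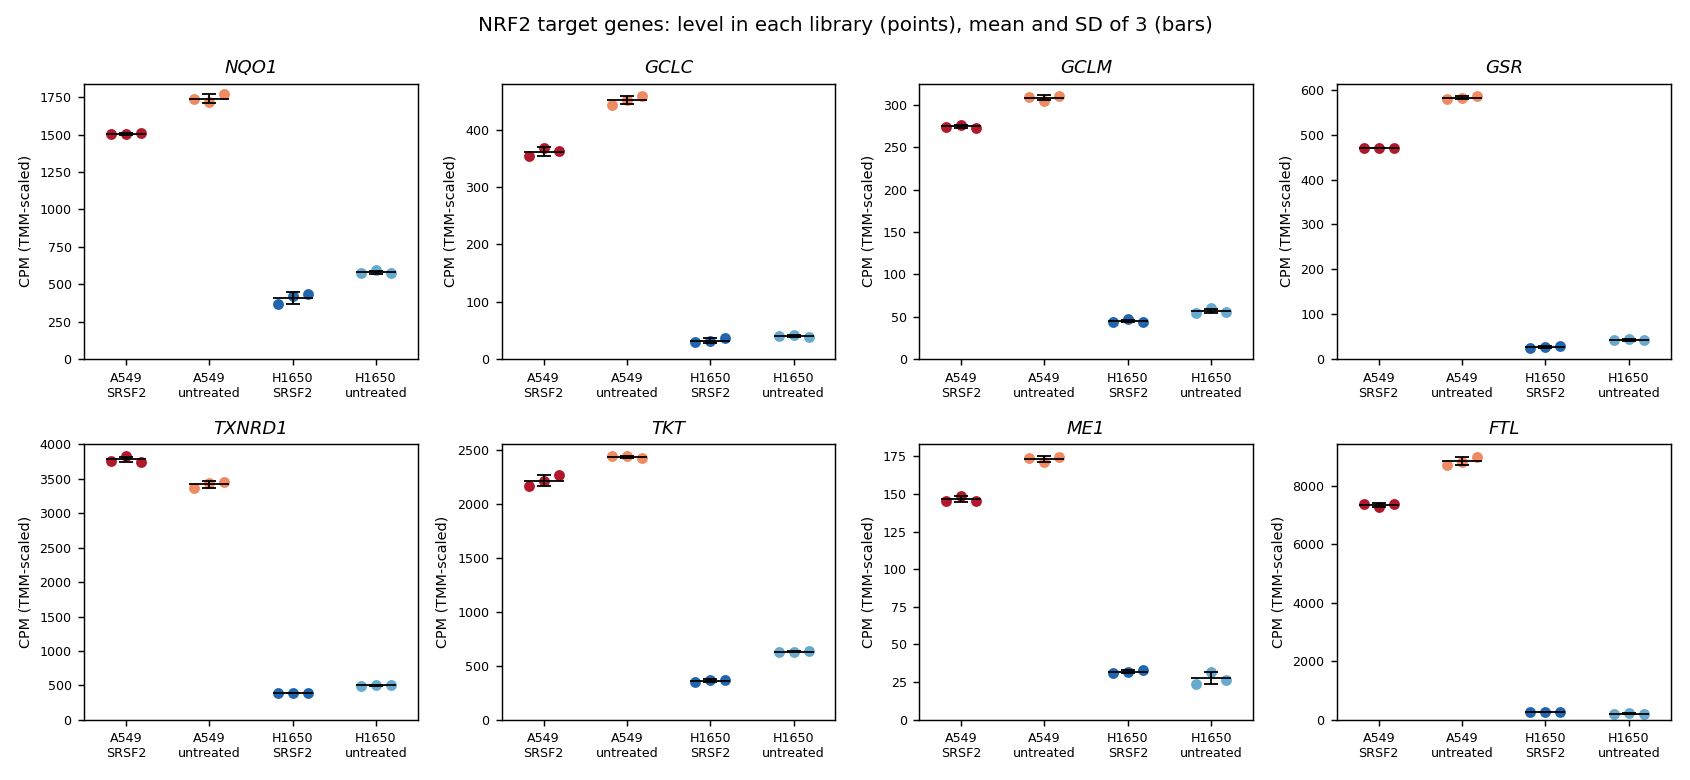
Level in TMM-scaled CPM (vertical axes, linear and starting at 0, a scale for each gene) of the 8 genes in A549 SRSF2, A549 untreated, H1650 SRSF2 and H1650 untreated libraries. Points are the 3 libraries of a group, and bars give their mean and SD. The A549 libraries stand above the H1650 libraries for every gene, and the SRSF2 groups lie below their untreated groups in A549 except for TXNRD1.

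Glutathione is made from its amino acids by glutamate-cysteine ligase, in which GCLC (ENSG00000001084, chr6:53497341-53616970, minus strand) is the catalytic and GCLM (ENSG00000023909, chr1:93885205-93909456, minus strand) the modifier subunit. GCLC had 354, 369 and 363 CPM in A549 SRSF2 libraries, against 444, 453 and 458 CPM in untreated A549 libraries. H1650 cells had 29.1, 30.7 and 37.1 CPM with SRSF2, against 40.6, 42.5 and 39.1 CPM in untreated cells. The SRSF2 libraries lay below the untreated ones in both lines without overlap, and GCLC fell by 0.32 on the log2 scale in A549 (SE 0.05, edgeR adjusted p = 9.34e-07) and by 0.33 in H1650 (SE 0.06, edgeR adjusted p = 8.8e-06). These changes were not shown to differ, with a difference of 0.01 (SE 0.07, edgeR adjusted p = 0.932). The H1650 value rests in part on SRSF2 replicate 3, the highest of its group: without it GCLC fell by 0.45 in H1650. A lincRNA on the same strand, AL033397.1, shares 529 bases, or 6.12%, of the exon bases of GCLC. It has no row in the table, so the split of reads between it and GCLC is uncertain.

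GCLM had 274, 277 and 273 CPM in A549 SRSF2 libraries, against 310, 305 and 311 CPM in untreated A549 libraries. The levels in H1650 were 44.0, 46.7 and 43.8 CPM with SRSF2, against 54.9, 59.9 and 55.7 CPM in untreated cells. The groups did not overlap in either line, and GCLM fell by 0.17 in A549 (SE 0.04, edgeR adjusted p = 0.000585) and by 0.34 in H1650 (SE 0.04, edgeR adjusted p = 3.67e-08). The fall was smaller in A549, with a difference between the lines of 0.17 (SE 0.06, edgeR adjusted p = 0.0139), and this difference lost its call without H1650 untreated replicate 2 (0.14, edgeR adjusted p = 0.0615). Per kilobase of exon, the level of GCLC was 0.826 ± 0.015 times that of GCLM in A549 SRSF2 cells and 0.917 ± 0.017 times in untreated A549 cells (SD, n = 3 each). In H1650 the ratio was 0.452 ± 0.068 with SRSF2 and 0.450 ± 0.013 in untreated cells, and it was 0.531 in SRSF2 replicate 3 against 0.415 and 0.412 in replicates 1 and 2. This ratio of levels, which has no test, was highest in untreated A549 cells.

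GSR (ENSG00000104687, chr8:30678061-30727999, minus strand) encodes glutathione reductase, which returns oxidised glutathione to its reduced form with NADPH. It had 469, 470 and 471 CPM in A549 SRSF2 libraries, against 580, 581 and 586 CPM in untreated A549 libraries. Its H1650 levels were 25.5, 26.4 and 28.8 CPM with SRSF2, against 42.1, 44.8 and 41.4 CPM in untreated cells. SRSF2 libraries were lower in both lines without overlap. GSR fell by 19.2% in A549 (log2 fold change -0.31, SE 0.04, edgeR adjusted p = 2.85e-08) and fell by 37.0% in H1650 (log2 fold change -0.67, SE 0.05, edgeR adjusted p = 4.2e-14). The fall was larger in H1650, with a difference of 0.36 on the log2 scale (SE 0.06, edgeR adjusted p = 7.86e-06), which was 0.42 without H1650 SRSF2 replicate 3. On log2(FPKM + 1), tested with limma, the difference was 0.012 and not called (adjusted p = 0.78). Between the lines GSR was 17.4-fold higher in A549 with SRSF2 and 13.6-fold higher in untreated A549, the largest fold of these 8 genes after FTL.

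TXNRD1 (ENSG00000198431, chr12:104215779-104350305, plus strand) encodes cytosolic thioredoxin reductase, which keeps thioredoxin reduced. It had 3766, 3828 and 3751 CPM in A549 SRSF2 libraries, against 3360, 3446 and 3447 CPM in untreated A549 libraries. In H1650 it had 386, 386 and 383 CPM with SRSF2, against 490, 501 and 507 CPM in untreated cells. The SRSF2 libraries were higher in A549 and lower in H1650, and the groups did not overlap in either line. TXNRD1 rose by 0.15 on the log2 scale in A549 (SE 0.03, edgeR adjusted p = 0.000181) and fell by 0.38 in H1650 (SE 0.03, edgeR adjusted p = 5.71e-13), a difference of 0.52 (SE 0.04, edgeR adjusted p = 2.21e-12). The other 7 genes fell in A549. Per kilobase of exon, the level of GSR was 0.222 ± 0.003 times that of TXNRD1 in A549 SRSF2 cells and 0.304 ± 0.004 times in untreated A549 cells, against 0.125 ± 0.009 with SRSF2 and 0.153 ± 0.007 untreated in H1650 (SD, n = 3 each).

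SRXN1 (ENSG00000271303, chr20:646615-653370, minus strand) encodes the enzyme that repairs over-oxidised peroxiredoxins, and it is the gene for which no value is given. A row of the table for AL121758.1, annotated on the same strand, shares 2292 bases, or 84.95%, of the exon bases of SRXN1 and holds 1435 counts over the 12 libraries. That row was not read as SRXN1.

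TKT (ENSG00000163931, chr3:53224707-53256052, minus strand) encodes transketolase, an enzyme of the non-oxidative branch of the pentose phosphate pathway. It had 2164, 2211 and 2261 CPM in A549 SRSF2 libraries, against 2439, 2438 and 2419 CPM in untreated A549 libraries. H1650 cells had 349, 368 and 371 CPM with SRSF2, against 629, 624 and 638 CPM in untreated cells. All SRSF2 libraries lay below all untreated libraries of their line. TKT fell by 0.14 in A549 (SE 0.03, edgeR adjusted p = 0.000862) and by 0.80 in H1650 (SE 0.03, edgeR adjusted p = 5.51e-21). The difference of 0.66 (SE 0.05, edgeR adjusted p = 3.11e-14) was the largest among the 8 genes in either direction, and 92.5% of all genes tested had a higher log2 fold change than TKT in H1650.

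ME1 (ENSG00000065833, chr6:83210389-83431071, minus strand) encodes cytosolic malic enzyme, which forms NADPH while turning malate into pyruvate. It had 145, 149 and 145 CPM in A549 SRSF2 libraries, against 174, 171 and 175 CPM in untreated A549 libraries. The levels in H1650 were 31.3, 31.5 and 33.3 CPM with SRSF2, against 23.9, 32.0 and 26.6 CPM in untreated cells. The groups stood apart in A549 and overlapped in H1650, where untreated replicate 2 lay within the range of the SRSF2 libraries. ME1 fell by 0.24 in A549 (SE 0.05, edgeR adjusted p = 0.000307) and rose by 0.22 in H1650 (SE 0.06, edgeR adjusted p = 0.00336), a difference of -0.47 (SE 0.08, edgeR adjusted p = 1.56e-05). The rise in H1650 was no longer called without untreated replicate 1 (0.13, edgeR adjusted p = 0.084) or with plain library totals in place of TMM factors (0.14, edgeR adjusted p = 0.0592).

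FTL (ENSG00000087086, chr19:48965301-48966878, plus strand) encodes the light chain of ferritin, the shell in which cells store iron. It had 7374, 7263 and 7385 CPM in A549 SRSF2 libraries, against 8713, 8821 and 8969 CPM in untreated A549 libraries. Its H1650 levels were 257, 276 and 256 CPM with SRSF2, against 214, 217 and 212 CPM in untreated cells. SRSF2 libraries were lower in A549 and higher in H1650, with no overlap in either line. FTL fell by 0.27 in A549 (SE 0.03, edgeR adjusted p = 1.22e-08) and rose by 0.29 in H1650 (SE 0.03, edgeR adjusted p = 7.56e-10), a difference of -0.56 (SE 0.04, edgeR adjusted p = 1.06e-12). By level per kilobase of exon FTL ranked 1 of 15574 genes in both A549 groups, 74 in H1650 SRSF2 cells and 77 in untreated H1650 cells. GENCODE 29 lists 16 FTL pseudogenes, of which FTLP2 and FTLP3 are in the table with 2288 counts in all, so the split of reads between FTL and its copies is uncertain.

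FTH1, the ferritin heavy chain that oxidises the iron taken in, is the partner of FTL and is another NRF2 target. It had 2275, 2427 and 2455 CPM in A549 SRSF2 libraries, against 2681, 2845 and 2882 CPM in untreated A549 libraries. In H1650 it had 2234, 2472 and 2188 CPM with SRSF2, against 2515, 2571 and 2610 CPM in untreated cells. Its levels in the lines were close, with A549 over H1650 at 0.05 with SRSF2 (SE 0.04, edgeR adjusted p = 0.185) and 0.13 in untreated cells (SE 0.04, edgeR adjusted p = 0.00267) on the log2 scale. Between untreated lines FTL was 41.2-fold and FTH1 1.09-fold higher in A549. Per kilobase of exon, the level of FTL was 7.12 ± 0.32 times that of FTH1 in A549 SRSF2 cells and 7.29 ± 0.19 times in untreated A549 cells, against 0.265 ± 0.007 with SRSF2 and 0.193 ± 0.005 untreated in H1650 (SD, n = 3 each). The size of these ratios depends on the merged exon lengths used, which are the same in all groups. Reads shared with pseudogenes of FTH1 were not examined.

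NQO1 (ENSG00000181019, chr16:69706996-69726951, minus strand) encodes the quinone reductase that is the standard readout of NRF2 activity. It had 1503, 1503 and 1512 CPM in A549 SRSF2 libraries, against 1737, 1716 and 1770 CPM in untreated A549 libraries. H1650 cells had 365, 422 and 437 CPM with SRSF2, against 575, 593 and 576 CPM in untreated cells. SRSF2 libraries were lower in both lines without overlap. NQO1 fell by 0.21 in A549 (SE 0.04, edgeR adjusted p = 0.000102) and by 0.51 in H1650 (SE 0.04, edgeR adjusted p = 6.86e-13), and the fall was larger in H1650, with a difference of 0.30 (SE 0.06, edgeR adjusted p = 5.15e-05). Its fold of A549 over H1650 was the smallest of the 8 in both comparisons of the lines. An antisense gene, AC092115.2, covers 575 bases of the exons of NQO1 and has no row in the table, and the strand setting of the counting is not given in the sources used here, so its reads could be part of this count.

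**Figure D2:**
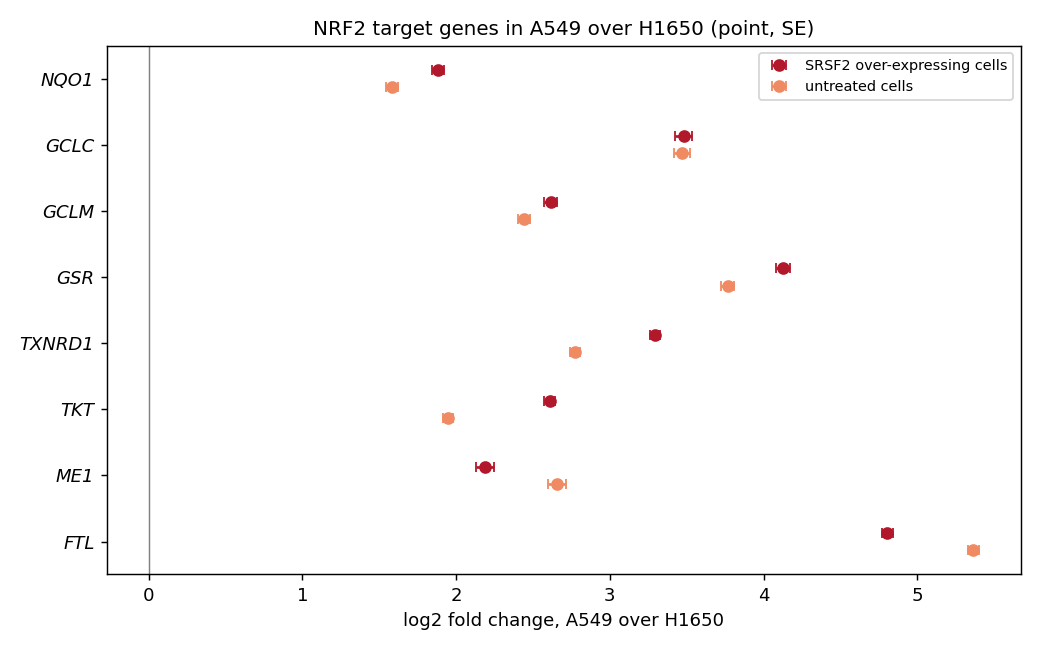
Log2 fold change of A549 over H1650 (horizontal axis) for the 8 genes (rows), in SRSF2 over-expressing cells (red, upper) and untreated cells (orange, lower), with bars of 1 SE. All points lie to the right of 0, from 1.58 for NQO1 in untreated cells to 5.36 for FTL in untreated cells.

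Taking the 8 genes side by side, 1 rose in A549 with SRSF2, TXNRD1, and 7 fell by 9.04% (TKT) to 19.8% (GCLC). Of all genes tested in A549, 32.3% were called, 15.9% lower and 16.4% higher, and the median of the 8 was -0.23 on the log2 scale against 0.00 over all genes. In H1650, FTL and ME1 rose and 6 genes fell: GCLC fell by 20.4%, the least, and TKT fell by 42.4%, the most. There 62.3% of all genes were called, 31.3% lower and 31.0% higher, and the median of the 8 was -0.36 against 0 over all genes. Libraries that do not overlap, with SRSF2 lower, were found for 23.0% of all genes in A549 and 32.6% in H1650, and with SRSF2 higher for 22.7% in A549 and 32.1% in H1650. Of the 8 genes, 7 were lower and 1 higher without overlap in A549, and 6 were lower and 1 higher in H1650. The change differed between the lines for 7 of 8 genes, where 47.5% of all genes tested were called. Of these, 5 had a value higher in A549 (24.0% of all genes) and 2, ME1 and FTL, a value lower in A549 (23.5%). Without H1650 SRSF2 replicate 3 the counts stayed at 2 higher and 6 lower in H1650 and at 5 and 2 for the difference. Without H1650 untreated replicate 1 the number higher in H1650 was 1, since ME1 lost its call (edgeR adjusted p = 0.084), and without H1650 untreated replicate 2 the difference was higher in A549 for 4 genes, since GCLM lost its call (edgeR adjusted p = 0.0615).

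**Figure D3:**
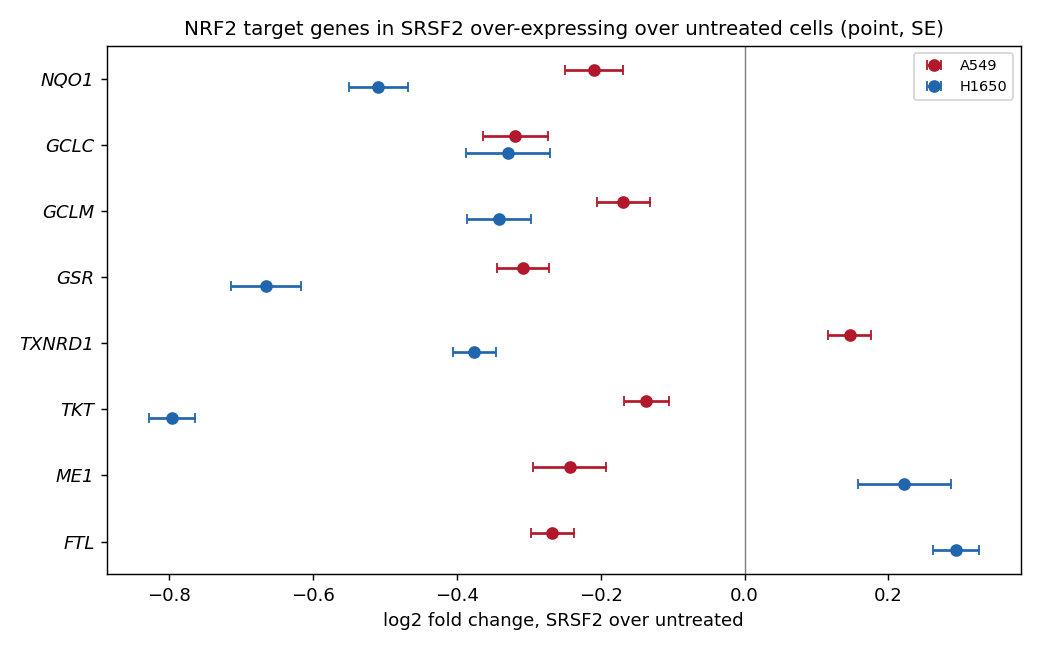
Log2 fold change of SRSF2 over-expressing over untreated cells (horizontal axis) for the 8 genes (rows), in A549 (red, upper) and H1650 (blue, lower), with bars of 1 SE. NQO1, GCLC, GCLM, GSR and TKT lie left of 0 in both lines, TXNRD1 lies to the right in A549 only, and ME1 and FTL lie to the right in H1650 only.

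The order of the mean levels followed from these changes. For NQO1, GCLC, GCLM, GSR and TKT it ran from untreated A549, the highest, through A549 SRSF2 and untreated H1650 to H1650 SRSF2, the lowest. For TXNRD1 the A549 groups were exchanged, and for ME1 and FTL the H1650 groups. Libraries of groups next to each other in these orders overlapped for ME1 in H1650 and for no other of the 8 genes. Together the 8 genes took 1.64 to 1.66% of all counts in A549 SRSF2 libraries, against 1.83 to 1.86% in untreated A549 libraries. In H1650 they took 0.139 to 0.152% with SRSF2, against 0.207 to 0.213% in untreated cells.

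Levels of the genes that regulate NRF2 were set beside those of the 8 targets. NFE2L2 had 181, 180 and 176 CPM in A549 SRSF2 libraries, against 153, 148 and 149 CPM in untreated A549 libraries. The levels in H1650 were 197, 199 and 186 CPM with SRSF2, against 150, 157 and 145 CPM in untreated cells. It rose with SRSF2 in both lines, by 0.25 in A549 (SE 0.04, edgeR adjusted p = 3.75e-06) and by 0.37 in H1650 (SE 0.04, edgeR adjusted p = 4.9e-10). Between untreated A549 and H1650 cells its libraries overlapped and the log2 fold change was -0.005 (SE 0.04, edgeR adjusted p = 0.904).

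KEAP1 had 130, 136 and 136 CPM in A549 SRSF2 libraries, against 156, 155 and 162 CPM in untreated A549 libraries. Its H1650 levels were 96.8, 99.7 and 102 CPM with SRSF2, against 125, 125 and 135 CPM in untreated cells. It fell with SRSF2 in both lines without overlap, by 0.23 in A549 (SE 0.04, edgeR adjusted p = 2.76e-05) and by 0.37 in H1650 (SE 0.04, edgeR adjusted p = 1.86e-09). RNA levels of NFE2L2 and KEAP1 say nothing of the amount of NRF2 protein or of the working of the mutated KEAP1.

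BACH1, the repressor that competes with NRF2, had 49.1, 46.9 and 44.6 CPM in A549 SRSF2 libraries, against 36.7, 34.7 and 33.9 CPM in untreated A549 libraries. In H1650 it had 99.9, 93.4 and 82.3 CPM with SRSF2, against 42.8, 41.9 and 41.2 CPM in untreated cells. It rose in both lines without overlap, by 0.42 in A549 (SE 0.06, edgeR adjusted p = 1.33e-06) and by 1.13 in H1650 (SE 0.06, edgeR adjusted p = 1.76e-18), and the rise was smaller in A549, with a difference of -0.71 (SE 0.08, edgeR adjusted p = 7.74e-09). Its value in H1650 SRSF2 replicate 3 was the lowest of its group.

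Small MAF proteins are the partners of both NRF2 and BACH1. MAFF averaged 28.4 ± 1.1 CPM in A549 SRSF2 cells and 11.4 ± 1.5 CPM in untreated A549 cells, and 298 ± 26 CPM with SRSF2 and 65.1 ± 3.7 CPM untreated in H1650 (SD, n = 3 each). It rose in both lines (log2 fold changes 1.32 and 2.19 in A549 and H1650). MAFG averaged 75.1 ± 1.7 CPM in A549 SRSF2 cells and 87.5 ± 6.5 CPM in untreated A549 cells, and 44.2 ± 3.2 CPM with SRSF2 and 25.6 ± 2.1 CPM untreated in H1650 (SD, n = 3 each). It fell by 0.22 in A549 (edgeR adjusted p = 0.00197) and rose by 0.79 in H1650 (edgeR adjusted p = 5.69e-13), a difference of -1.01 (SE 0.08, edgeR adjusted p = 4.59e-12). SQSTM1, which encodes the p62 protein that binds KEAP1 and is itself an NRF2 target, averaged 2014 ± 56 CPM in A549 SRSF2 cells and 1482 ± 10 CPM in untreated A549 cells, and 367 ± 23 CPM with SRSF2 and 172 ± 6 CPM untreated in H1650 (SD, n = 3 each). It rose in both lines, by 0.44 and 1.09. NFE2L3, a relative of NFE2L2, rose by 0.40 in A549 and by 2.41 in H1650. Over the list of 17 regulators, 6 rose and 4 fell in A549 (median 0.06), against 16.4% higher and 15.9% lower of all genes tested. In H1650, 10 rose and 4 fell (median 0.34), against 31.0% higher and 31.3% lower of all genes tested.

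**Figure D4:**
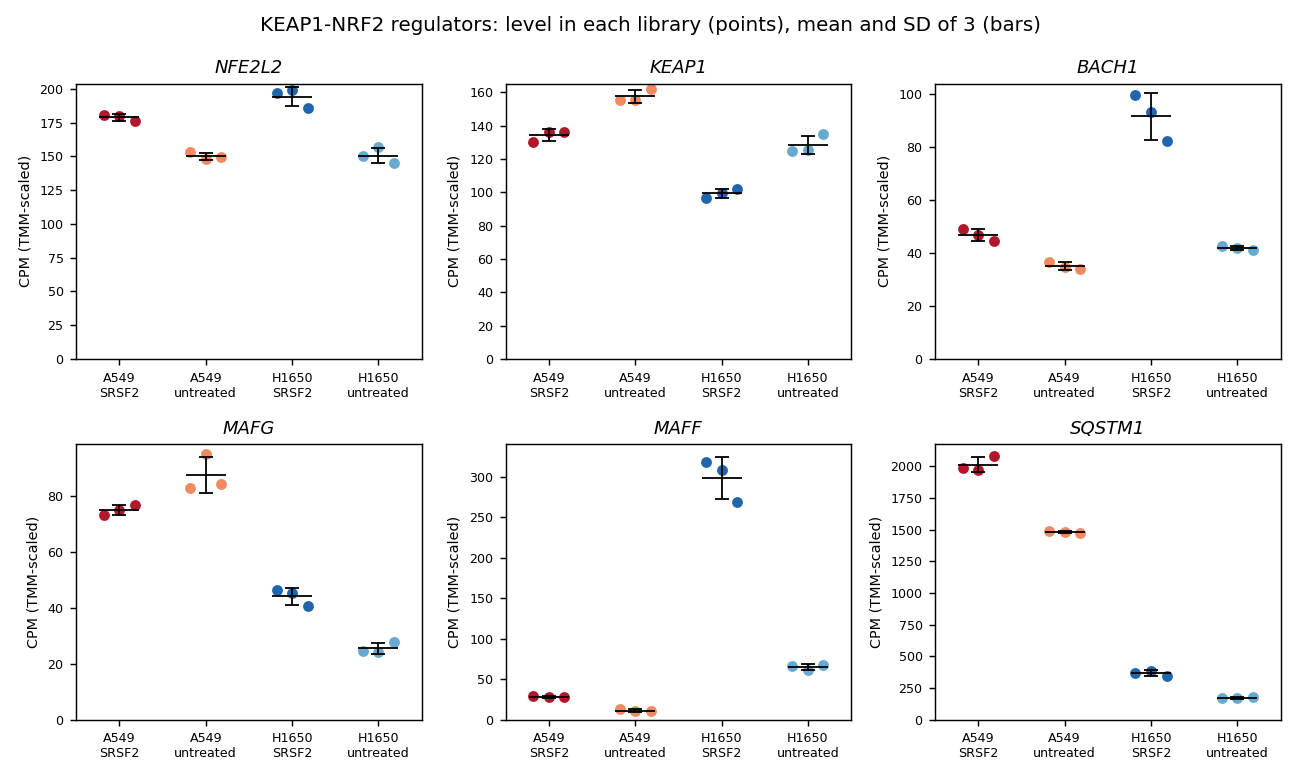
Level in TMM-scaled CPM (vertical axes, linear and starting at 0, a scale for each gene) of 6 regulators in A549 SRSF2, A549 untreated, H1650 SRSF2 and H1650 untreated libraries. Points are the 3 libraries of a group, and bars give their mean and SD. NFE2L2 is at like levels in the untreated groups of both lines, at means of 150.0 CPM in A549 and 150.5 CPM in H1650, while SQSTM1 is higher in A549 and MAFF in H1650.

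Beyond the 8 genes, a list of 40 other established NRF2 targets had 36 genes tested, some of which are also in the regulator list and in the lists that follow. Of these 36, 35 were called higher in A549 than in H1650 between the SRSF2 groups (median log2 fold change 2.67), FTH1 being the exception, and all 36 between the untreated groups (2.66). Of all genes tested, 43.7% were called higher in A549 between the SRSF2 groups and 42.3% between the untreated groups. The list was chosen with earlier results of these data known. Every gene of the table has counts in at least 4 A549 libraries, so targets seen mainly in H1650 may be missing from the 36. These counts are therefore a description and not independent support. With SRSF2, 2 rose and 24 fell in A549 (median -0.20), against 16.4% higher and 15.9% lower of all genes tested, and 7 rose and 22 fell in H1650 (median -0.28), against 31.0% higher and 31.3% lower of all genes tested. The difference was higher in A549 for 15 and lower for 7 of the 36, against 24.0% and 23.5% of all genes tested. The aldo-keto reductases AKR1B10 and AKR1C2 and the aldehyde dehydrogenase ALDH3A1, which clear reactive carbonyls, were among the targets with the smallest adjusted p between the lines. AKR1B10 averaged 3672 ± 50 CPM in A549 SRSF2 cells and 4386 ± 41 CPM in untreated A549 cells, and 0.366 ± 0.144 CPM with SRSF2 and 0.912 ± 0.198 CPM untreated in H1650 (SD, n = 3 each). ALDH3A1 fell by 0.59 in A549 (edgeR adjusted p = 9.6e-16), to 1878 ± 88 CPM with SRSF2 against 2819 ± 42 CPM in untreated cells, and in H1650 it stayed below 0.24 CPM in each library. The AKR1C genes resemble one another in sequence, so that reads could be split among them and their levels are uncertain. Whether AKR1B10 shares reads with its relative AKR1B15 was not tested.

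**Figure D5:**
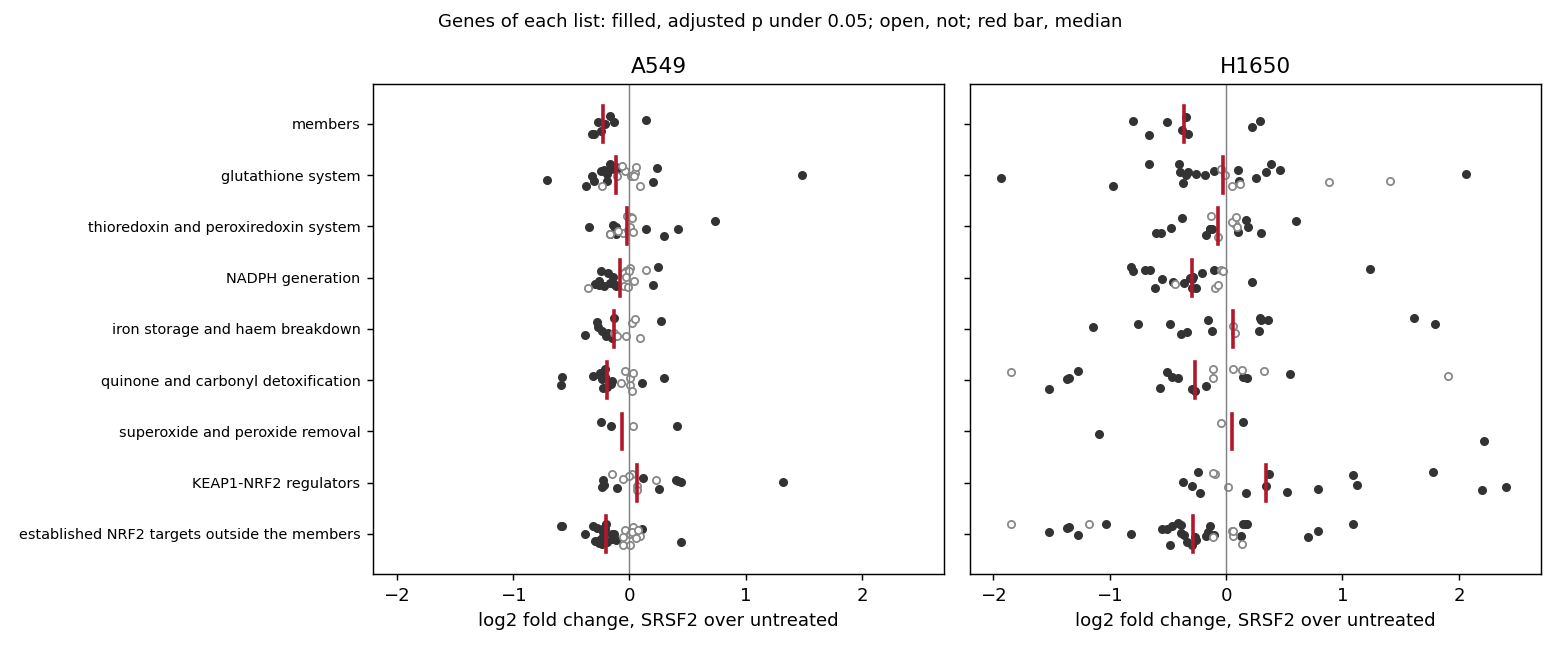
Log2 fold change of SRSF2 over-expressing over untreated cells (horizontal axes) in A549 (left) and H1650 (right) for each tested gene of the lists (rows). Filled points have an edgeR adjusted p under 0.05, open points do not, and red bars are medians, from -0.23 (the 8 genes, shown as members) to 0.06 (regulators) in A549 and from -0.36 (the 8 genes) to 0.34 (regulators) in H1650.

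The lists that follow also hold the 8 genes, which are left out of the counts here and kept in the plot of the lists. Of 22 genes of NADPH supply, all tested, 2 are among the 8. Of the other 20, 2 rose and 8 fell in A549 (median -0.05), against 16.4% higher and 15.9% lower of all genes tested. In H1650, 1 rose and 14 fell (median -0.29), against 31.0% higher and 31.3% lower of all genes tested. PGD, an NADPH-forming enzyme of the pentose phosphate pathway, fell by 0.22 in A549 (edgeR adjusted p = 1.78e-06) and by 0.10 in H1650 (edgeR adjusted p = 0.00936). TALDO1, transaldolase, fell by 0.14 in A549 (edgeR adjusted p = 0.00338) and by 0.36 in H1650 (edgeR adjusted p = 4.01e-09). IDH1, the cytosolic NADP-dependent isocitrate dehydrogenase, fell by 0.26 and 0.81 in A549 and H1650, and its mitochondrial relative IDH2 fell by 0.16 and 0.70. ME3, a mitochondrial malic enzyme, rose in both lines, by 0.25 in A549 (edgeR adjusted p = 0.0379) and by 1.24 in H1650 (edgeR adjusted p = 4.84e-14).

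Of 33 glutathione genes 24 were tested, 3 of them among the 8. Of the other 21, 3 rose and 9 fell in A549 (median -0.11), where 16.4% of all genes rose and 15.9% fell. In H1650, 7 rose and 8 fell (median 0.06), where 31.0% of all genes rose and 31.3% fell. SLC7A11, the cystine importer that feeds glutathione synthesis, was not called in A549 (log2 fold change -0.04, edgeR adjusted p = 0.561) or H1650 (0.06, edgeR adjusted p = 0.46), while it was 6.76-fold higher in untreated A549 than in untreated H1650 cells. CHAC1, which breaks glutathione down, rose by 1.48 in A549 (edgeR adjusted p = 1.08e-11) and fell by 0.37 in H1650 (edgeR adjusted p = 6.12e-05). GSTP1, a glutathione transferase, averaged 522 ± 13 CPM in A549 SRSF2 cells and 606 ± 9 CPM in untreated A549 cells (SD, n = 3 each), while in H1650 it had 3 counts in all with SRSF2 and 1 count in untreated cells. GPX3, a secreted glutathione peroxidase, rose by 2.06 in H1650 (edgeR adjusted p = 1e-12) at a low level, 3.38 ± 0.11 CPM with SRSF2 and 0.810 ± 0.123 CPM untreated (SD, n = 3 each).

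Of 23 thioredoxin and peroxiredoxin genes 19 were tested, 1 of them TXNRD1. Of the other 18, 3 rose and 6 fell in A549 (median -0.03), and 5 rose and 7 fell in H1650 (median -0.01). All genes tested were called in 32.3% of cases in A549 and 62.3% in H1650. TXN, the thioredoxin that TXNRD1 reduces, was not called in A549 (-0.05, edgeR adjusted p = 0.319) and rose by 0.17 in H1650 (edgeR adjusted p = 0.000445), opposite to the fall of TXNRD1 there. SESN2, a sestrin, rose in both lines, by 0.74 in A549 (edgeR adjusted p = 1.58e-11) and by 0.60 in H1650 (edgeR adjusted p = 2.87e-13).

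Of 18 genes of iron storage and haem breakdown 15 were tested, 1 of them FTL. Of the other 14, 1 rose and 7 fell in A549 (median -0.13), against 16.4% higher and 15.9% lower of all genes tested. In H1650, 5 rose and 7 fell (median -0.03), against 31.0% higher and 31.3% lower of all genes tested. HMOX1, haem oxygenase 1, fell by 0.13 in A549 (edgeR adjusted p = 0.0263) with overlapping libraries and was not called in H1650 (0.06, edgeR adjusted p = 0.328). ACO1, whose protein is also an iron regulatory protein that binds ferritin and transferrin receptor mRNAs, had 243, 218 and 201 CPM in H1650 SRSF2 libraries, against 71.9, 74.7 and 69.4 CPM in untreated H1650 libraries. It rose by 1.62 in H1650 (SE 0.05, edgeR adjusted p = 2.4e-24) and was not called in A549 (0.05, SE 0.05, edgeR adjusted p = 0.492). TFRC, the transferrin receptor, fell by 0.75 in H1650 (edgeR adjusted p = 2.46e-18) and was not called in A549 (0.09, edgeR adjusted p = 0.0643). The change of both differed between the lines (edgeR adjusted p = 1.31e-18 for ACO1 and 5.36e-15 for TFRC).

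Of 24 genes of quinone and carbonyl detoxification 21 were tested, 1 of them NQO1. Of the other 20, 2 rose and 12 fell in A549 (median -0.18), against 16.4% higher and 15.9% lower of all genes tested. In H1650, 3 rose and 10 fell (median -0.22), against 31.0% higher and 31.3% lower of all genes tested. Among 4 tested genes that remove superoxide and peroxide, SOD2, the mitochondrial superoxide dismutase, rose by 0.41 in A549 (edgeR adjusted p = 1.25e-08) and by 2.21 in H1650 (edgeR adjusted p = 6.73e-29). CAT, catalase, fell by 0.25 in A549 (edgeR adjusted p = 0.000158) and by 1.09 in H1650 (edgeR adjusted p = 6.76e-19).

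Patterns over the 12 libraries were compared with the mean of the 8 by the root mean square difference of centred log2(CPM + 0.5). Among 10666 genes the most like it were SLC35B4, LINC01963, MORC4, SLC45A1 and KBTBD11, at distances of 0.0975 to 0.130. In H1650 with SRSF2 and untreated, SLC45A1 averaged 0.734 and 0.823 CPM, KBTBD11 1.14 and 1.92 CPM, and LINC01963 1.70 and 2.09 CPM. At such levels the added 0.5 shrinks the difference between the lines, so these 3 distances depend on it. Of the 8 themselves TXNRD1 lay closest to their mean, at 0.125, and FTL farthest, at 1.04. The measure picks genes with the profile of the 8. That the genes it picked were higher in A549 than in H1650 follows from this choice.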

How the data were processed

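Polyadenylated RNA from TRIzol extracts was sequenced by the authors. Raw counts per gene were deposited, and the submitters' processing notes name featureCounts 2.0.0, STAR 2.7.7a, fastp 0.20.1 and hg38/GRCh38. Annotation release, strand setting and the rule that kept genes in the table are not given in the sources used here. The deposited FPKM values equal a formula on the same counts (largest relative deviation 8.2e-13). Their gene length is the genomic span, introns included, for 13381 of 16139 IDs (82.9%, tolerance 0.1%), so FPKM served in alternatives only.

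For symbols, 16076 IDs matched a table of gene names, 63 more matched GENCODE 29 and 460 stayed without. Positions follow GENCODE 29 (GRCh38), lengths are merged exons, and promoter windows are from RefSeq. Ratios and ranks of genes per kilobase of exon therefore depend on the annotated exons. Replicates were not duplicates (chi-square per degree of freedom 2.24 to 7.78). Residuals of same-numbered libraries correlated at -0.025 to 0.059, so numbers were not taken as pairs. edgeR 4.0.16 in R 4.3.3 (filterByExpr, TMM, quasi-likelihood, 1 mean per group, 12 libraries, 8 residual degrees of freedom) tested 15991 genes, with Benjamini-Hochberg adjustment over all of them. The SE is the log2 fold change over the root of F and is approximate. edgeR's common coefficient of biological variation was 0.0342 in A549 SRSF2, 0.0298 in untreated A549, 0.056 in H1650 SRSF2 and 0.0338 in untreated H1650 libraries. In a library 3 counts are 0.0935 to 0.126 CPM, a limit that covers counting error only. DESeq2 1.42.0 and limma 3.58.1 (log2 of FPKM plus 1 or 0.1) gave alternatives. The pipeline was tested on simulated data. The genes and lists were chosen with earlier results of these data known. Genes named are the 9, a fixed set of regulators and partners, and up to 4 genes of smallest adjusted p per list and comparison.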

Additional observations from a re-analysis of the deposited data

Results flagged for a closer look

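The effect of SRSF2 differed between A549 and H1650, by the test of the difference itself, for 7 of the 8 genes. On the log2 scale, A549 minus H1650, and with edgeR's quasi-likelihood test and Benjamini-Hochberg adjustment, the difference was 0.299 for NQO1 (adjusted p = 5.15e-05), 0.173 for GCLM (adjusted p = 0.0139), 0.357 for GSR (adjusted p = 7.86e-06) and 0.66 for TKT (adjusted p = 3.11e-14). These 4 genes fell in both lines and less in A549. It was 0.522 for TXNRD1 (adjusted p = 2.21e-12), which rose in A549 and fell in H1650. It was -0.465 for ME1 (adjusted p = 1.56e-05) and -0.561 for FTL (adjusted p = 1.06e-12), which fell in A549 and rose in H1650. Of all genes tested, 47.5% were called for this difference.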

How the results depend on the processing

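Each result was recomputed under 22 other settings (21 for the difference between the lines). Of 436 counts of called genes, 432 stayed within 1.5 times, and of 872 values of single genes 857 kept their call and direction. These totals include fits that left out a library of a group outside the comparison, which can move its values little. The number of the 8 genes called higher in H1650 with SRSF2 was 1 in place of 2 with plain library totals, with log2(FPKM + 1) and with log2(FPKM + 0.1), and 1 to 2 over the fits that left out a library, because ME1 lost its call (log2 fold changes 0.14, 0.016, 0.082 and, without untreated replicate 1, 0.13). The difference for GCLC, which was not called, turned sign: -0.003879 with RLE factors, -0.003007 with DESeq2, -0.001714 with log2(FPKM + 0.1) and -0.05661 to 0.1299 over the fits without a library. With log2(FPKM + 1) it was -0.157 and called (adjusted p = 0.00315), and the GSR difference was 0.012 and not called (adjusted p = 0.78). The difference for GCLM lost its call without H1650 untreated replicate 2. The causes of these changes were not tested. In A549 against H1650, the median log2 fold change of all genes moved to 0.174 with plain totals and 0.171 with upper-quartile factors in SRSF2 cells, and to 0.133 with upper-quartile factors in untreated cells, and the 8 genes stayed higher in A549. The share of calls that were higher moved from 49.8% to 40.9% with plain totals in H1650 (40.1% and 40% on the FPKM scales) and from 50.6% to 60.1% with plain totals for the difference, so the split over all genes depends on scaling. With the replicate number as a block, 1 of the 8 genes was higher and 7 lower in A549, and 2 and 6 in H1650, and no call on the 8 genes changed. The block gave 2619 higher and 2527 lower genes in A549 (2620 and 2542 without it). The numbers are not known to pair the libraries. Depth was at least 639 counts for each of the 8 genes in each library.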
